A study of Arabidopsis thaliana with 4 samples.

Results

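The genes described here encode proteins of the small (40S) subunit of the cytosolic ribosome of Arabidopsis thaliana. Of 60 listed loci in 25 protein families, 36 loci in 19 families had a probe set whose single annotated gene was that locus, and these 36 were kept without any filter on signal, out of 13286 loci with such a probe set and 22746 probe sets in all, array controls left out. A further 12 loci were covered only by 6 probe sets annotated to several genes each, and 12 had no probe set in the tables used here. All 36 probe sets carry the plain suffix of the array design, which marks probes chosen for a single transcript. The loci carry no protein name in those tables, so families (S2, S3 and so on) are given from general knowledge of the Arabidopsis ribosome. The listed loci of families Sa, S5, S6, S15a, S16 and S23 have no value.

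The small subunit holds the mRNA and pairs its codons with tRNA. It consists of an 18S rRNA and a set of proteins in a head, a body and a platform, and nearly every plant protein of the set is encoded by several paralogous genes. Ribosomal proteins are made in step with growth, and making them is among the largest costs of energy and amino acids in a cell. The kinase SnRK1, the plant relative of yeast Snf1 and animal AMPK, acts when energy is short, whereas the TOR kinase promotes ribosome production when it is plentiful.

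Leaf mesophyll protoplasts, which are cells freed of their walls, were transfected with a plasmid expressing KIN10 (AT3G01090), a catalytic subunit of SnRK1, or with control plasmid DNA. They were then kept under light in mannitol buffer for 6 h. There were 2 KIN10 arrays and 2 control arrays, 1 of each in experiments 1 and 2, and both arrays of an experiment came from the same pool of protoplasts of 36 plants. Per the design text, the experiments were done by different people with different plants, growth chambers, DNA and array facilities. The expression is transient, and neither the promoter of the plasmid, the plant genotype nor the share of cells that took up DNA is stated in the labels.

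Array medians lay between 276 and 522 signal units. KIN10 itself lacked a single-gene probe set among those analysed, which leaves the labels without that check. Of 10 mesophyll markers 7 had a probe set, none was at 0, and their summed signal was 120191 and 168834 in KIN10 arrays 1 and 2, against 78926 and 108982 in control arrays 1 and 2. Of these 7 genes limma called 2 higher with KIN10 (14.7% of all probe sets tested), and their part in the results below was not tested. The guard cell marker FMA, 1 of 3 listed, had 479 and 146 in KIN10 arrays 1 and 2, against 586 and 262 in control arrays 1 and 2, and AT1G64370, 1 of 3 listed for phloem, had 69.6 and 6.7 in KIN10 arrays, against 162.5 and 15.0 in control arrays. In experiment 2 the signals of AT1G64370 were near the 10th percentile of their arrays (10.4 with KIN10, 11.9 with control DNA). It was not tested, as a filter on low signals removed it. Epidermis and trichome markers had no value.

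All 36 small-subunit genes had a lower signal with KIN10 in both experiments, as did 29.7% of all 22746 probe sets. Their median log2 change (KIN10 minus control, mean of both experiments) was -1.62, which is 3.07-fold lower, while the median of the 13648 probe sets kept after a filter on low signals was 0.03. Single genes ranged from 1.61-fold to 6.54-fold lower, with 5 over 4-fold, 24 between 2-fold and 4-fold and 7 under 2-fold. The value of 6.54 is that of AT5G59240, which had low signals and was removed by this filter. Among the genes that passed it the largest fall was 4.59-fold (AT2G32060). Changes and folds are given on log2 signals centred on the median of each array unless stated otherwise. They thus differ from ratios of the deposited signals printed below. On this centred scale the signal was at least 2-fold lower for 34 of the 36 in experiment 1 (12.9% of the probe sets kept). In experiment 2 this held for 22 (9.69%), and these 22 were at least 2-fold lower in both (5.57% of all probe sets). As deposited, both KIN10 signals lay below both control signals for all 36 genes (20.9% of all probe sets). After the arrays had been centred on their medians this held for 31 (16.5%), and AT3G02080, AT5G20290, AT1G48830, AT5G27700 and AT3G52580 overlapped.

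**Figure D1:**
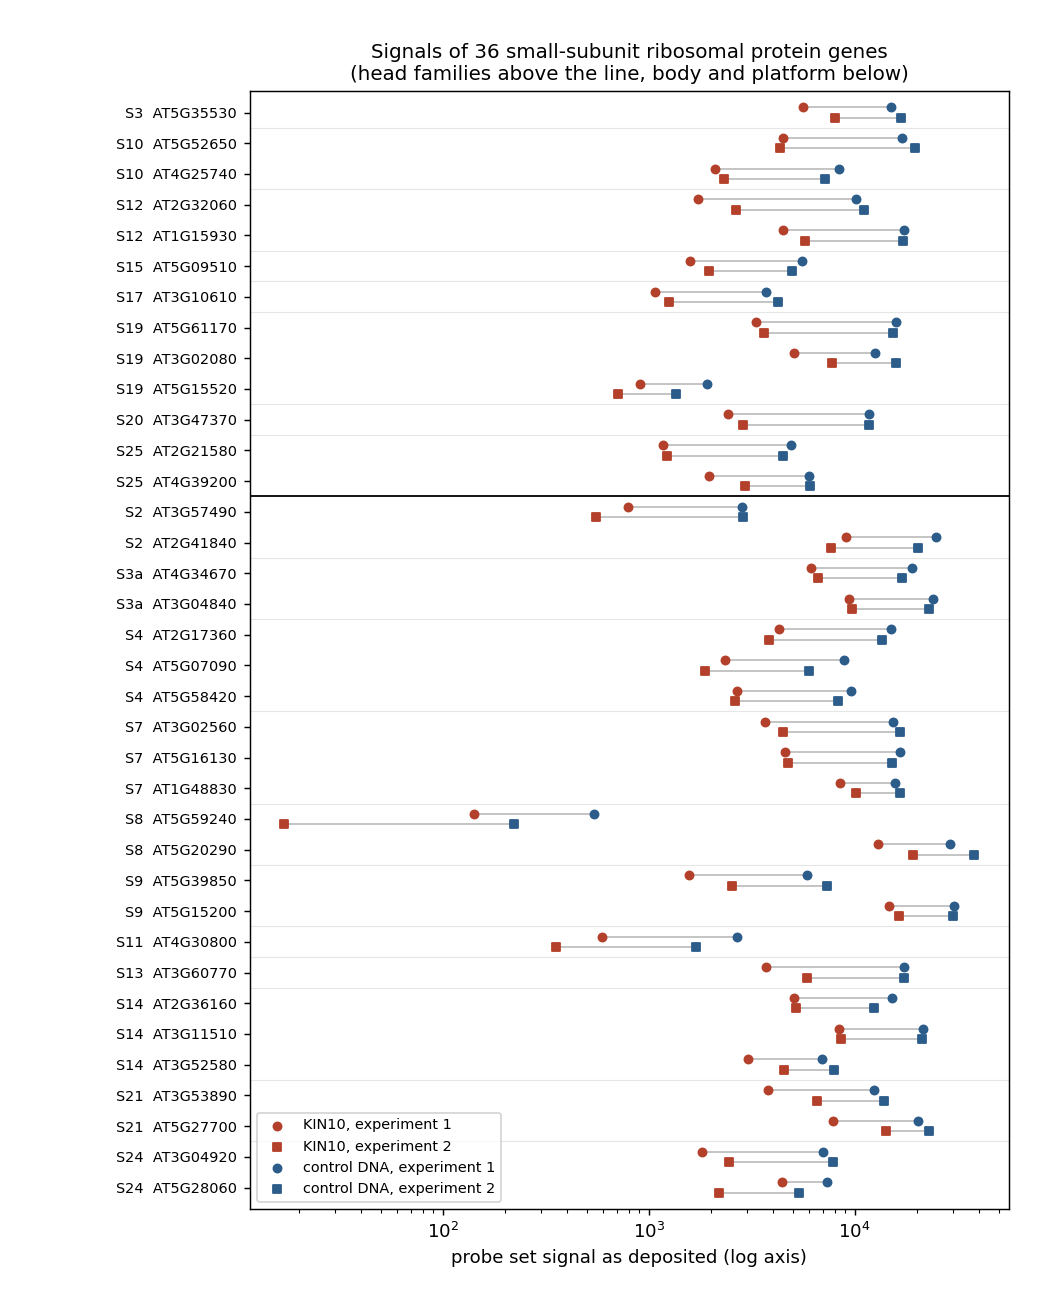
Deposited probe set signal (log axis) of each of the 36 genes in KIN10 arrays (red) and control arrays (blue), with circles for experiment 1 and squares for experiment 2 and a line joining the pair of an experiment. Both KIN10 signals lie left of both control signals in all 36 rows, and levels of different probe sets are not comparable.

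The filter kept 35 of the 36 and removed AT5G59240. In limma with the experiment as a block, 34 of the 35 were called lower at an adjusted p under 0.05, against 15.5% of the 13648 probe sets tested, and AT1G48830 was not called. None was called higher, and none was higher at an unadjusted p under 0.05. With no filter, limma called 32 of all 36 lower, AT5G59240 among them (adjusted p = 0.00956), against 7.48% of 22746. Standard errors (SE) here lay between 0.27 and 0.35 and follow a trend common to all probe sets, so the changes in experiments 1 and 2 show the spread of a single gene better. The calls also rest on the block. On median-centred values without the block limma called 1 of the 35 lower (AT4G30800, adjusted p = 0.0426), against 0.374% of all tested. With 1 array left out as well it called 0 without control replicate 1, 0 without control replicate 2 (2 genes lower at an unadjusted p under 0.05 in each), 1 without KIN10 replicate 1 and 3 without KIN10 replicate 2. On the values as deposited, without the block, limma called 28 of the 35 lower, against 4.32% of all tested, and between 25 and 32 with 1 array left out.

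On median-centred values the fall was larger in experiment 1 for 33 of the 36 genes, with medians of -1.89 in experiment 1 and -1.23 in experiment 2. The median of the change in experiment 1 minus that in experiment 2 was -0.59 over these genes and -0.26 over all 13648 probe sets tested. The exceptions were AT5G59240, AT3G57490 and AT5G28060. The gap between the experiments and the count of 33 depend on the scale. Array medians were 522 and 275.5 in KIN10 arrays 1 and 2, against 490 and 343.5 in control arrays 1 and 2. Centring on them makes every change more negative in experiment 1 and less negative in experiment 2. The changes of the 36 genes in both experiments had a Pearson r of 0.678, and of 0.803 without AT5G59240. Over all 13648 probe sets tested it was 0.775. Genes on the same 4 arrays are not independent, so these values carry no test. Fewer cells of a type and less RNA per cell cannot be told apart in these bulk samples.

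**Figure D2:**
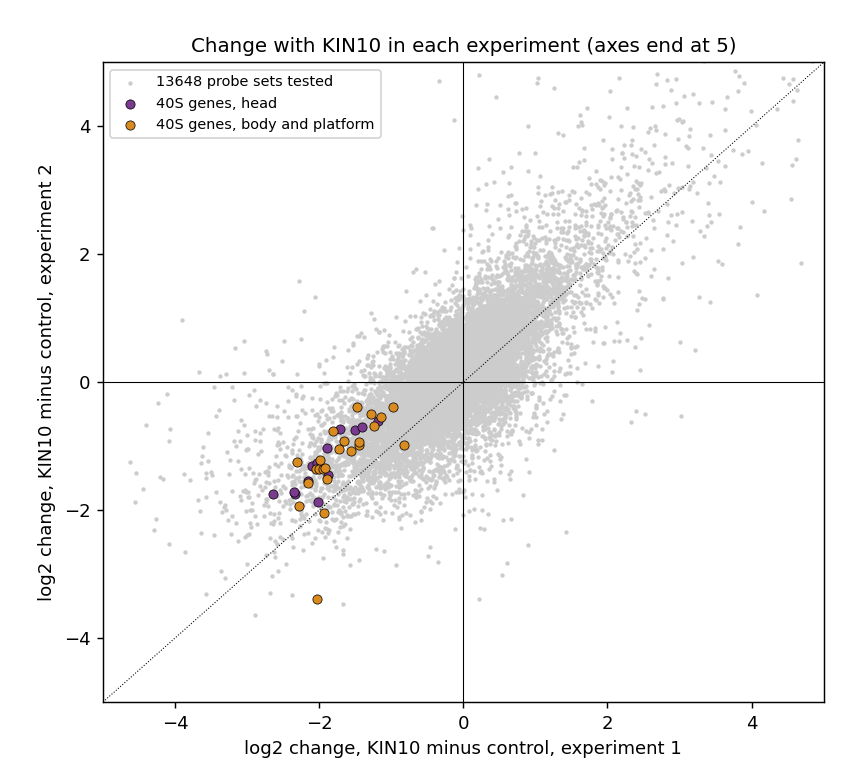
Log2 change (KIN10 minus control) in experiment 1 (horizontal) and experiment 2 (vertical) for the 13648 probe sets tested (grey) and the 36 small-subunit genes (purple for head, orange for body and platform), with the dotted line marking equal changes. All 36 genes lie below 0 on both axes and 33 lie above the dotted line on these median-centred values. A further 53 grey probe sets fall beyond the axis limit of 5.

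Among the proteins of the head, 13 genes of 8 families had values, and all 13 were called lower by limma (15.5% of all tested). Their median log2 change was -1.66. S3 lines the channel through which mRNA enters. Its gene AT5G35530 had 5627 and 7986.5 in KIN10 arrays 1 and 2, against 15039 and 16799 in control arrays 1 and 2, and fell 2.19-fold. Its fitted log2 change was -1.13 ± 0.33 (SE from limma, 2 arrays in each group, as for every fitted change given here). S15 reaches towards the decoding site. For AT5G09510 the signals were 1593 and 1954 with KIN10, against 5576 and 4987 with control DNA, with no overlap between the groups and a fitted change of -1.47 ± 0.30. S17 is a protein of archaeal and eukaryotic ribosomes that bacteria lack. The signals of AT3G10610 were 1078 and 1254 in KIN10 arrays, against 3703 and 4253 in control arrays, a change of -1.66 ± 0.29.

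S20 sits on the head where the subunit meets mRNA and factors. AT3G47370 had among the largest falls of the 36, to 2438 and 2861 in KIN10 arrays 1 and 2, against 11689 and 11740.3 in control arrays 1 and 2. This is 4.10-fold lower (log2 change -2.03 ± 0.32, limma adjusted p = 7.05e-09), and the arrays of each group lay close together on the deposited scale. S12, a protein of the beak of the head, had both paralogues measured. AT2G32060 had 1729.8 and 2647 with KIN10, against 10156 and 11107 with control DNA, and was 4.59-fold lower, the most negative change among the 35 tested genes (-2.20 ± 0.32, limma adjusted p = 1.88e-10). Its paralogue AT1G15930 had 4511 and 5771 with KIN10, against 17372 and 17209.9 with control DNA, and a change of -1.65 ± 0.33. The change of AT1G15930 was smaller than that of AT2G32060 by 0.61 in experiment 1 and by 0.49 in experiment 2.

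S10 lies near the mRNA entry side of the head in eukaryotes. AT5G52650 had 4477 and 4321 in KIN10 arrays, against 16965.5 and 19666 in control arrays, 3.84-fold lower (-1.94 ± 0.33, limma adjusted p = 1.13e-07). AT4G25740 had 2099 and 2328 in KIN10 arrays, against 8425 and 7172 in control arrays (-1.70 ± 0.31). Which of these paralogues fell more differed between the experiments, with log2 changes of -2.01 and -1.87 for AT5G52650 and -2.09 and -1.30 for AT4G25740 in experiments 1 and 2. S25, which in yeast and mammals helps some viral RNAs to start translation, was represented by AT2G21580 and AT4G39200. AT2G21580 had 1173 and 1231 with KIN10, against 4899 and 4502 with control DNA (-1.85 ± 0.29). AT4G39200 had 1959 and 2929.6 with KIN10, against 6021 and 6038 with control DNA (-1.22 ± 0.31). As deposited, its control signals were thus alike and its KIN10 signals were not. After centring, its log2 values were 10.53 and 12.03 with KIN10, against 12.24 and 12.76 with control DNA.

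S19, which in yeast and humans is needed for maturation of the 40S precursor, had 3 paralogues, and they were further apart than those of any other head family with several values. AT5G61170 had 3337 and 3638 in KIN10 arrays 1 and 2, against 15836.5 and 15294 in control arrays 1 and 2, 4.13-fold lower (-2.05 ± 0.33, limma adjusted p = 1.25e-08). AT3G02080 had 5053 and 7806 in KIN10 arrays, against 12562 and 15829 in control arrays, 2.07-fold lower (-1.05 ± 0.33). AT5G15520 had 904 and 712 in KIN10 arrays, against 1929 and 1353 in control arrays, 1.86-fold lower (-0.90 ± 0.27). AT5G15520 changed by less than AT5G61170 by 1.15 on the log2 scale in experiment 1 and again by 1.15 in experiment 2. For AT3G02080 the same difference was 0.93 and 1.05.

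The body and platform were represented by 23 genes of 11 families, with a median log2 change of -1.38. Of the 22 that passed the filter on low signals, limma called 21 lower (15.5% of all tested). S2, at the mRNA entry channel, had 2 paralogues with values. AT3G57490 had 796 and 553 with KIN10, against 2844 and 2858 with control DNA, 3.97-fold lower (-1.99 ± 0.28, limma adjusted p = 2.71e-11), with changes of -1.93 and -2.05 in experiments 1 and 2. AT2G41840 had 9032 and 7680.2 with KIN10, against 24885 and 20288 with control DNA, 2.49-fold lower (-1.32 ± 0.34). S9 also borders the entry channel. AT5G39850 had 1574 and 2528 with KIN10, against 5878 and 7363 with control DNA (-1.61 ± 0.31). AT5G15200 had 14633 and 16365 with KIN10, against 30207 and 29879.5 with control DNA, 1.79-fold lower (-0.84 ± 0.35). This last gene lay at the edge of the limma threshold (adjusted p = 0.0493) and was not called with no filter (limma adjusted p = 0.247).

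S3a and S14 lie on the platform near the exit of the mRNA. The S3a genes changed alike. AT4G34670 had 6110.3 and 6602 in KIN10 arrays, against 19009 and 16944 in control arrays (-1.38 ± 0.34), and AT3G04840 had 9418.5 and 9693 in KIN10 arrays, against 24111 and 23031 in control arrays (-1.19 ± 0.34). Of the 3 S14 genes, AT2G36160 had 5089 and 5212 in KIN10 arrays, against 15105 and 12352 in control arrays (-1.29 ± 0.33). AT3G11510 had 8356 and 8609 in KIN10 arrays, against 21449.6 and 21259.5 in control arrays (-1.22 ± 0.34). AT3G52580 had the smallest change of these 3 in both experiments, with 3047 and 4515 in KIN10 arrays, against 6952 and 7973 in control arrays (-0.89 ± 0.32, limma adjusted p = 0.0212).

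S7, which acts in early assembly of the subunit in yeast and humans, had paralogues that differed by about the same amount in both experiments. AT3G02560 had 3676 and 4469 with KIN10, against 15392 and 16544 with control DNA, 3.64-fold lower (-1.86 ± 0.33). AT5G16130 had 4569 and 4743 with KIN10, against 16578 and 15201 with control DNA, 3.15-fold lower (-1.66 ± 0.33). AT1G48830 had 8484 and 10139.7 with KIN10, against 15681 and 16600.3 with control DNA (-0.68 ± 0.34, limma adjusted p = 0.115). The change of AT1G48830 was smaller than that of AT3G02560 by 1.18 in experiment 1 and by 1.18 in experiment 2, and smaller than that of AT5G16130 by 0.97 in each. AT1G48830 was the tested gene that missed the threshold, and its call depended on the setting. With the block, limma called it lower with the values as deposited (adjusted p = 0.00215). The same held after quantile (adjusted p = 0.00211) or cyclic loess normalization (adjusted p = 0.00522). It held too with medians taken over the kept probe sets alone (adjusted p = 0.0126). Limma did not call it on the spike-in scale (adjusted p = 0.0815) or with an offset of 50 (adjusted p = 0.0588). Nor did it under other variance models (adjusted p = 0.0965 and 0.101), with no filter (0.233) or one at the 20th percentile (0.152). Without the block the limma adjusted p was 0.881 on median-centred values and 0.0846 on the values as deposited.

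S4, a body protein that contacts the 18S rRNA, gave the opposite picture, with 3 paralogues that changed nearly alike. AT2G17360 had 4314 and 3829.6 in KIN10 arrays, against 15040.2 and 13569.5 in control arrays (-1.70 ± 0.33). AT5G07090 had 2357 and 1885 in KIN10 arrays, against 8832 and 5993 in control arrays (-1.67 ± 0.31). AT5G58420 had 2694 and 2619.9 in KIN10 arrays, against 9589 and 8256 in control arrays (-1.63 ± 0.32). Their fitted changes lay within 0.07 of each other, and their order was not the same in experiments 1 and 2.

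S8, another body protein, had the widest spread, but 1 of its paralogues had low signals. AT5G59240 had 141.5 and 17 in KIN10 arrays 1 and 2, against 541 and 223 in control arrays 1 and 2, with log2 changes of -2.02 and -3.39. The KIN10 signal of 17 is close to the 10th percentile of that array (10.4), so the size of this change is poorly determined. AT5G20290 had 13052 and 19093 in KIN10 arrays, against 29034 and 38085 in control arrays (-0.96 ± 0.35, limma adjusted p = 0.0221). With no filter AT5G20290 was not called (limma adjusted p = 0.191).

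For S11 and S13, proteins of the body, 1 gene each had a value. The S11 gene AT4G30800 had 593 and 356 with KIN10, against 2698 and 1702 with control DNA, 4.31-fold lower (-2.11 ± 0.27, limma adjusted p = 6.40e-13). On median-centred values it was the gene still called without the block, and this call was lost when either control array was left out as well. The S13 gene AT3G60770 had 3727 and 5868 with KIN10, against 17325 and 17335 with control DNA, 3.42-fold lower (-1.78 ± 0.33). Its control signals were nearly equal as deposited, but were 13.77 and 14.28 (log2) in control arrays 1 and 2 after centring. Its centred changes were -2.31 and -1.24 in experiments 1 and 2.

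S21, a small protein of the body found only in eukaryotes, had 2 paralogues. AT3G53890 had 3778 and 6539 in KIN10 arrays, against 12447 and 13894 in control arrays (-1.29 ± 0.33). AT5G27700 had 7828 and 14128 in KIN10 arrays, against 20384 and 22964.5 in control arrays (-0.93 ± 0.34, limma adjusted p = 0.0257), and with no filter it was not called (limma adjusted p = 0.141). In both S21 genes, as in most small-subunit genes described here, the deposited KIN10 signal was higher in experiment 2 than in experiment 1. S24, a protein of the lower body, had 1 gene with the larger fall in experiment 1 and 1 with the larger fall in experiment 2. AT3G04920 had 1817 and 2464 in KIN10 arrays, against 7037 and 7840.5 in control arrays (-1.70 ± 0.31). AT5G28060 had 4421 and 2187 in KIN10 arrays, against 7339.9 and 5371 in control arrays (-0.90 ± 0.31, limma adjusted p = 0.0177). The gap between these genes was 1.22 in experiment 1 and 0.37 in experiment 2.

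In all, 13 families had 2 or 3 paralogues with values, which makes 21 pairs. The same paralogue of a pair had the larger fall in both experiments in 17 pairs and not in 4, and the pairs share paralogues. A gap of over 0.5 on the log2 scale in both experiments was seen in 6 of the 21 pairs. These 6 include the S8 pair, which rests on the low signals of AT5G59240. They also include pairs that share AT1G48830 and pairs that share AT5G61170. A gap between probe sets of the same arrays is the same under any scaling by a factor per array. These differences between paralogues were not tested. The 6 probe sets annotated to several genes each, which cover 12 further listed loci, had log2 changes between -0.52 and -1.27, and limma called 3 of the 6 lower (15.5% of all tested).

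**Figure D3:**
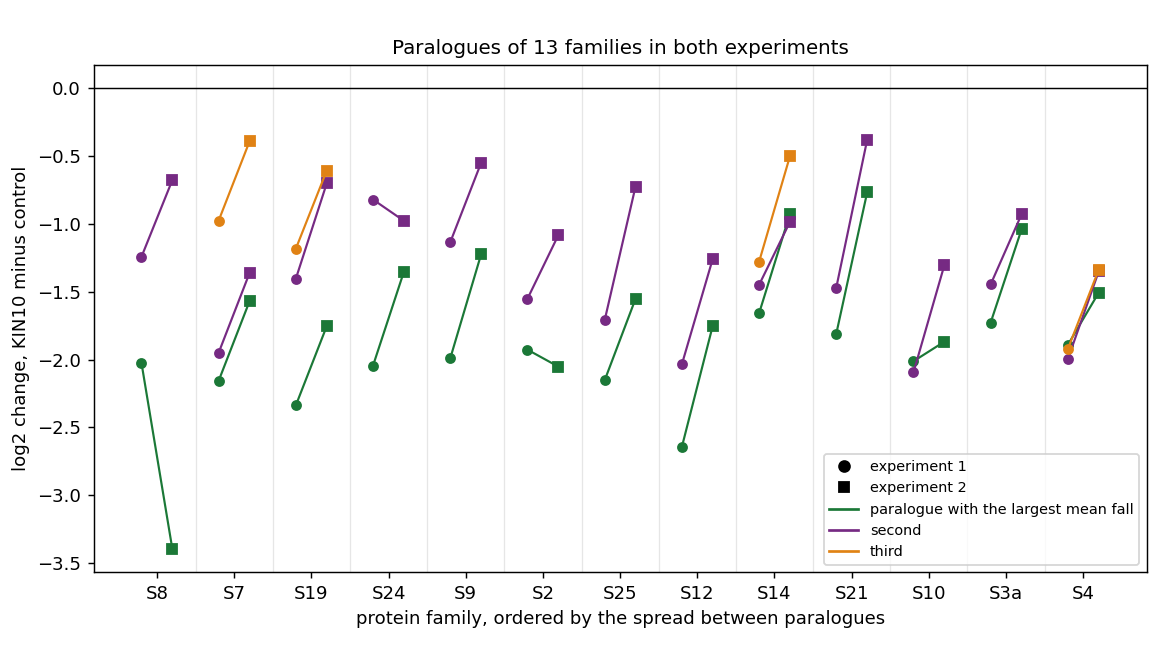
Log2 change (KIN10 minus control) of each paralogue in the 13 families with 2 or 3 values, with circles for experiment 1, squares for experiment 2 and colours for the order of the mean falls. All points lie below 0, the S7 lines run in parallel (a gap of 1.18 in both experiments), and the 3 lines of S4 nearly coincide.

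Related gene lists give the setting. They were chosen with earlier results of these data known, so their counts are no independent support. Of 29 further loci for small-subunit proteins 5 had a single-gene probe set, and limma called 4 of the 4 tested lower (15.5% of all tested), and without the block between 0 (median-centred values) and 3 (values as deposited). The most negative was AT1G23410, an S27a gene whose product is fused to ubiquitin, with 114.9 and 102.5 in KIN10 arrays, against 832 and 615 in control arrays (-2.61 ± 0.40), and the least was AT5G47930, an S27 gene (-1.29 ± 0.34). AT2G39590, an S15a gene that the filter removed and that is named here after its values were seen, had signals of 167 and 31.4 with KIN10, against 136 and 9.4 with control DNA.

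For proteins of the large (60S) subunit 80 of 128 listed loci had a value, with a median log2 change of -1.35. Limma called 69 of the 77 tested lower (15.5% of all tested) and none higher. On median-centred values without the block it called 1 of them, and on the values as deposited without the block 64. The tested changes ran from -3.17 (AT1G15250, an L37 gene, ± 0.34) to 0.55 (AT3G51190, an L8 gene, ± 0.44, limma adjusted p = 0.380). AT1G15250 had 40.2 and 411.9 in KIN10 arrays 1 and 2, against 1376.3 and 1149.4 in control arrays 1 and 2. Its changes of -5.19 in experiment 1 and -1.16 in experiment 2 were thus far apart, and its signal in KIN10 array 1 was near the 10th percentile of that array (31.4). For 12 measured of 24 loci of small-subunit assembly the median was -1.29, and limma called 11 lower (15.5% of all tested). On median-centred values without the block it called 1 of the 12, and between 0 and 3 with 1 array left out as well, while on the values as deposited without the block it called 7. AT1G06720, the gene of the assembly GTPase BMS1, fell 5.36-fold (-2.42 ± 0.29), and DIM1A, an rRNA dimethylase gene, had a change of -0.35 ± 0.28 (limma adjusted p = 0.383).

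Of 34 loci of cytosolic translation factors 5 had a value, and limma called 1 of the 4 tested lower (15.5% of all tested), AT4G20980 for an eIF3 subunit (-1.42 ± 0.31). The least negative was EIF4A-2 (-0.53 ± 0.34, limma adjusted p = 0.25). This count is not stable, since limma called all 4 with the values as deposited. For the ribosome of the plastid, which has its own nuclear-encoded proteins, 10 of 38 loci had a value. None was called lower by limma, none was lower at an unadjusted p under 0.05, and 2 of the 10 were called higher (14.7% of all tested), with a median change of 0.47 on median-centred values and of 0.09 on the scale of the spike-in controls. AT5G24490 of this list had 6459 and 9244 in KIN10 arrays, against 1131 and 1604.5 in control arrays, 6.21-fold higher (2.63 ± 0.30). The other called gene, AT1G64510, had a change of 0.89 ± 0.31. AT4G01310, for protein L5 of the plastid, had a change of 0.04 ± 0.30. Of 5 loci for TOR and S6 kinase, RAPTOR1 (0.37 ± 0.30) and RAPTOR2 (-0.29 ± 0.34), which encode a partner of TOR, had values, and neither was called by limma or had an unadjusted p under 0.05.

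**Figure D4:**
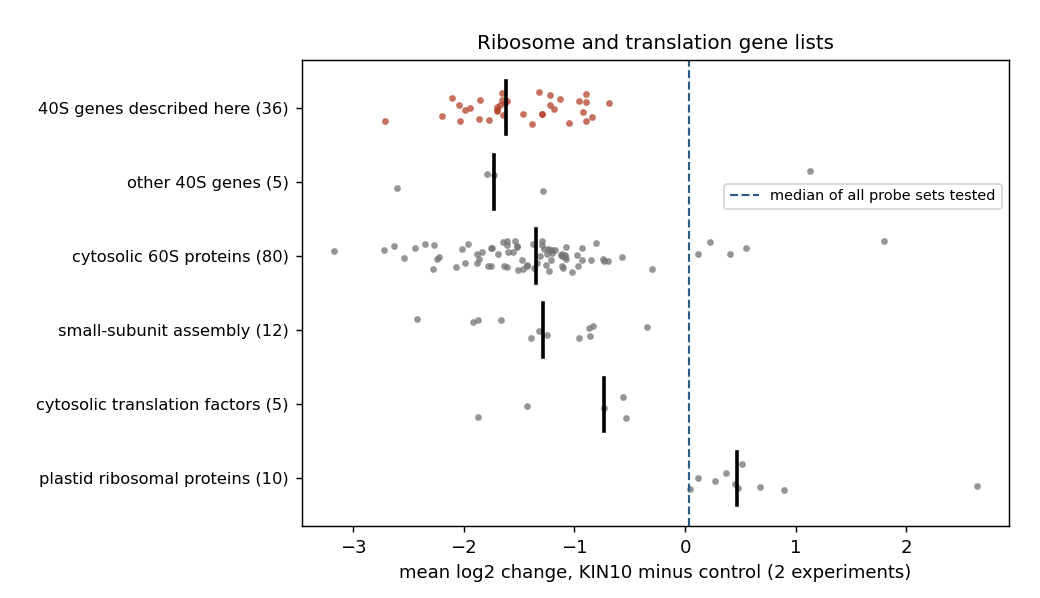
Mean log2 change (KIN10 minus control, 2 experiments) of each gene with a value in 6 lists, with the number of genes in parentheses, black bars for list medians and a dashed line for the median of all probe sets tested. The small-subunit genes (red, median -1.62) all lie below 0, the large-subunit genes have a median of -1.35, and the plastid ribosomal proteins lie above 0 on these median-centred values (their median is 0.09 on the spike-in scale).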

How the data were processed

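RNA of 4 samples was measured on Affymetrix GeneChips, 8 ug of total RNA per array. The authors deposited 1 intensity per probe set on a linear scale, and on each array the mean trimmed by 2% at each end lay between 1500.13 and 1500.15. GCOS 1.0 is the tool in the submitters' processing notes, and its settings are not stated there. Loci came from GEO's annotation of the array and a RefSeq gene table, and 13436 of 13513 single-gene probe sets obtained one.

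After 1 value at 0 was set to the smallest of its array, log2 signals were centred on the median of 22746 probe sets, leaving out 64 array controls. The 13648 probe sets at or above the 40th percentile of mean log2 signal were tested (limma 3.58.1, R 4.3.3, intensity trend, experiment block, Benjamini-Hochberg). The block follows the pairs of the design text, and arrays of an experiment deviated together (Pearson r of 0.705 across probe sets). With 1 residual degree of freedom and a prior of 1311, p-values rest on pooling over probe sets. The replicates of a group are transfections of different plants. Other scalings, filters, variance models, the fit without the block and the fits with 1 array left out were tried, and the closing section gives their effect. Of several probe sets of a listed gene the one with the highest mean log2 signal was used. Full values (signals, changes in both experiments and the fit) were to be given for extreme members and families of several paralogues. Signals are given for all 36 and the fitted change for the 35 tested, but the changes in each experiment for some genes only. Members and lists were chosen with earlier results of these data known. Promoter and protein sequences are not used here.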

Additional observations from a re-analysis of the deposited data

How the results depend on the processing

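All 36 genes kept a negative change under every alternative tried, and none was called higher. With the block, limma called between 32 and 35 of the small-subunit genes lower under 10 alternatives of scaling, filter, offset and variance model, which called between 7.48% (no filter) and 21.2% (spike-in scale) of all tested lower. The losses, with no filter or one at the 20th percentile, were AT5G20290, AT5G27700 and AT5G15200. The list median moved with the scale. Relative to the median of all tested probe sets it was -1.65 as reported, as deposited and on the spike-in scale. These scales differ by a factor per array, which cannot alter that value. It was -1.73 after quantile and -1.68 after cyclic loess normalization, and between -1.84 and -1.27 on median-centred values with 1 array left out. On the spike-in scale the median of all tested shifted to -0.34. There 841 probe sets were called higher and 2890 lower (77.5% of calls lower, against 51.3% as reported). No replicate block on median-centred values left 1 small-subunit gene called lower, with 51 lower and 122 higher among all tested. With 1 array left out and no block, calls among these genes ran from 0 to 3, among all tested from 8 to 358 lower and from 59 to 697 higher, and the list median lay between -2.07 and -0.98, the extremes being the values without KIN10 replicate 2 and without KIN10 replicate 1. Chosen after seeing the data, the values as deposited with no replicate block gave 28 calls among these genes (590 lower and 481 higher among all tested), and quantile normalization with no replicate block gave 30 (600 and 529). As deposited with 1 array left out, 25 to 32 were called, with 411, 517, 1773 and 810 lower and 508, 614, 1120 and 513 higher among all tested (without control replicates 1 and 2 and KIN10 replicates 1 and 2 in turn), and the list median ran from -1.73 to -1.56. The cause of these differences was not tested. Precision is limited by having 2 arrays in each group.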
